A study of Rattus norvegicus with 4 samples.

Results

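The muscle microRNAs (miRNAs) miR-1, miR-133a, miR-133b and miR-206 were followed in primary chondrocytes of the rat, which build and keep up the matrix of cartilage. They were taken by the names of their probes (rno-miR-1, rno-miR-133a, rno-miR-133b and rno-miR-206), leaving out the opposite (star) arms, which gave 4 of the 679 miRNA probes on the arrays. The study comprised 4 samples of chondrocytes cultured at 200000 cells per ml. One was untreated (0 h, the control) and 3 had received the inflammatory cytokine interleukin-1β (IL-1β) at 10 ng/ml and were collected after 6, 12 or 24 h. Each sample was hybridised to 1 array with 5 spots per probe, and strain, age and the source of the cartilage are not given in the sources used here. No group had a second array and no untreated array was taken at a later time. The groups therefore could not be tested against each other, and IL-1β and time in culture cannot be told apart in any change from the control.

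These 4 miRNAs, together with a few others, are the classical muscle miRNAs, which are abundant in skeletal or heart muscle and are induced by myogenic transcription factors. They are made as bicistronic pairs: miR-1 is transcribed with miR-133a, and miR-206 with miR-133b. In muscle cells miR-1 and miR-206 promote differentiation, with the histone deacetylase Hdac4 among the known targets, whereas miR-133 is known for favouring myoblast proliferation through serum response factor. A miR-206 signal from muscle would be looked for together with its partner miR-133b, which is the comparison that the probes allow here.

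The mature sequences show which members the probes could mix up. They are the target sequences given for the probes, written 5′ to 3′ with the seed (bases 2 to 8) in capitals, and all 4 matched a mature miRNA of RefSeq (build GRCr8) exactly.
miR-1: uGGAAUGUaaagaaguguguau
miR-206: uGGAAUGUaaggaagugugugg
miR-133a: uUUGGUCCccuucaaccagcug
miR-133b: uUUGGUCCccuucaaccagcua
miR-1 and miR-206 share a seed, and so do both miR-133 forms. Counted from the 5′ end, miR-206 differs from miR-1 by A11G, A21G and U22G. miR-133b differs from miR-133a by G22A alone, at the last base. No probe outside the 4 lay within 4 edits of any of them or had the same seed, and the nearest were miR-122, 8 edits from both miR-1 and miR-206, miR-150, 9 edits from miR-133a, and miR-326, 9 edits from miR-133b.

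In the RefSeq annotation of GRCr8, mature miR-206 lies at chr9:30590747-30590768 and mature miR-133b at chr9:30594629-30594650, both on the plus strand. Their hairpins are separated by 3801 bases and both fall inside the bounds of the long non-coding gene LOC120094648. Mature miR-1 lies at chr18:2160339-2160360 and mature miR-133a at chr18:2157886-2157907, both on the minus strand. Their hairpins are 2368 bases apart, within the bounds of Mib1, a gene for a ubiquitin ligase of the Notch pathway. The 2 spanning genes were matched by position without regard to strand. Whether they are transcribed in the direction of the hairpins, and whether the hairpins fall in their exons or introns, was not analysed here.

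Each array's background was read from its 261 empty spots. The detection limit was their 95th percentile, and detection of a miRNA asked for 3 or more of its 5 spots above it. The limit stood at 151.3 scanner units in the control and 54.2, 96.4 and 86.2 units at 6, 12 and 24 h. By this rule 27.5% of the 679 miRNAs were detected in the control, 52.3% at 6 h, 35.3% at 12 h and 30.9% at 24 h. The chondrocyte-enriched miR-140, miR-140* and miR-455* were detected on all 4 arrays and miR-455 on the 3 treated ones. Of the miRNAs listed for other cells, 5 of 5 for smooth muscle and fibroblasts were detected on every array. Among these, miR-199a-5p and miR-214 also stand on the list below of miRNAs that occur in many tissues. Whether smooth muscle cells or fibroblasts were present was not tested. None of 5 for blood, 6 for epithelium and 1 for liver was detected on any. Of 2 for endothelium 1, miR-126, was detected on the 3 treated arrays, and of 3 for neural cells miR-128 was detected on all 4 arrays and miR-124 at 6 h.

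rno-miR-206 was the one member detected on all 4 arrays, as were 24% of all miRNAs. Its 5 spots averaged 743 ± 90.7 units (SD over spots) in the control, between 650.3 and 894.6. They averaged 937 ± 113 units at 6 h, 736 ± 26.9 units at 12 h and 1042 ± 116 units at 24 h. Every one of its 20 spots was brighter than the brightest empty spot of its array, which read 162.6 units in the control and 66.1, 108.7 and 107.1 units at 6, 12 and 24 h. The mean of its spots was 4.91 times the detection limit in the control, 17.3 times at 6 h, 7.64 times at 12 h and 12.1 times at 24 h.

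rno-miR-133b, the partner of miR-206 on chromosome 9, was detected on none of the 4 arrays. In the control its spots averaged 114 ± 15.3 units, below the 122.6 units of the median empty spot, with 0 of 5 above the limit. At 12 h they averaged 71.2 ± 8.08 units and at 24 h 53.1 ± 12.1 units, again below the median empty spot (75.3 and 65.0 units) and with 0 of 5 above the limit on both arrays. At 6 h, on the array with the lowest background, the mean was 56.7 ± 6.78 units and 2 of 5 spots passed 54.2 units, 1 of them above the brightest empty spot. miRNAs that no array detected, miR-133b included, had a median spot of 90.9, 46.3, 63.9 and 46.9 units at 0, 6, 12 and 24 h. The miR-133b means lay above these medians on all 4 arrays. A mean below the median empty spot therefore does not show that signal was absent. The miR-206 signal was thus seen at 0, 6, 12 and 24 h without its partner reaching detection. How brightly each probe reads its target was not measured, so that the levels of miR-206 and miR-133b cannot be set against each other. Of all miRNAs, 47.4% were likewise detected on none of the arrays.

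**Figure D1:**
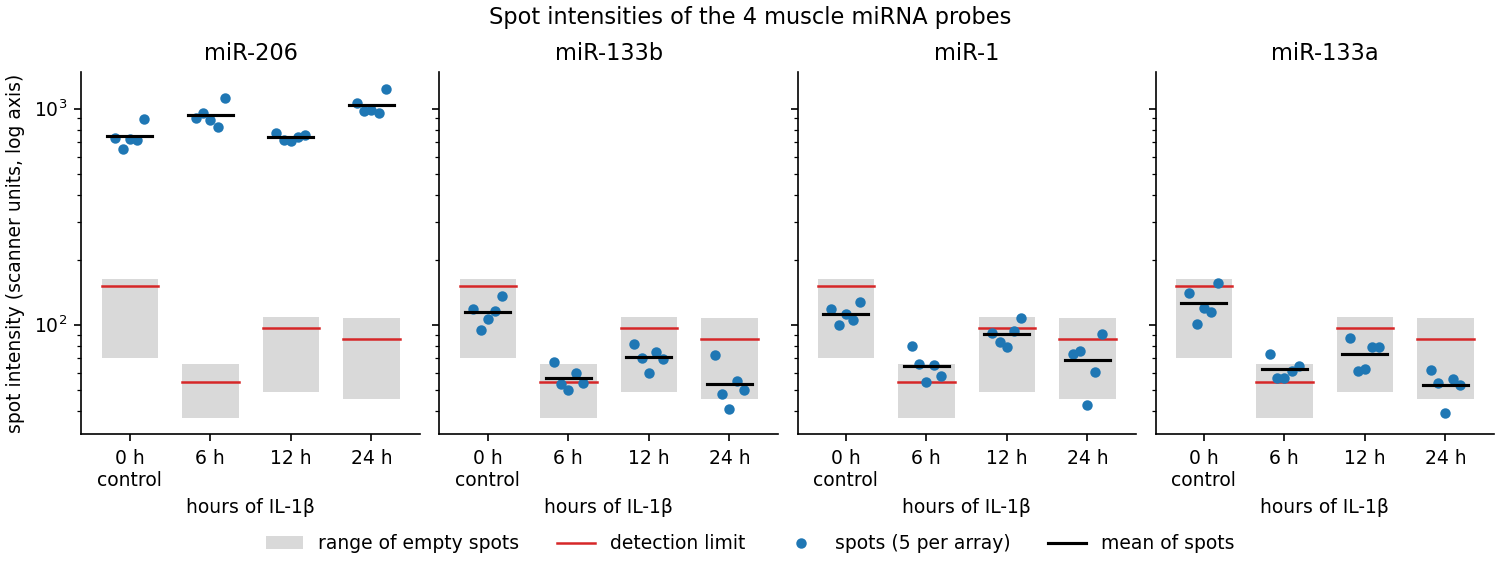
Intensity of the 5 spots of each muscle miRNA probe (points, scanner units on a log axis) on the control array and after 6, 12 and 24 h of IL-1β, with their mean (black line), the range of the 261 empty spots (grey) and the detection limit (red line). All miR-206 spots stand above the grey range on every array, whereas those of miR-133b, miR-1 and miR-133a lie largely within it.

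rno-miR-1 was detected at 6 h alone. Its spots averaged 64.6 ± 9.90 units there, with 4 of 5 above the limit of 54.2 units and 1 above the brightest empty spot. In the control they averaged 113 ± 10.9 units with 0 of 5 above the limit, and at 12 h and 24 h 90.8 ± 10.8 and 68.5 ± 18.2 units with 1 of 5 above it on each array. Net of the median empty spot, the miR-1 probe thus read -10.0 units in the control and 18.3, 15.5 and 3.52 units at 6, 12 and 24 h. The miR-206 probe read 621, 891, 661 and 977 units net on the same arrays. How much of the related miR-206 the miR-1 probe reads was not tested.

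rno-miR-133a was likewise detected at 6 h alone, with 5 of 5 spots above the limit, a mean of 62.4 ± 6.95 units and 1 spot above the brightest empty one. Its spots averaged 126 ± 21.7 units in the control, where 1 of 5 passed the limit, and 73.4 ± 11.3 and 52.7 ± 8.26 units at 12 and 24 h, where 0 of 5 did. Since miR-133a and miR-133b differ in 1 base, it was not tested how far each probe reads the other's target.

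The background of the array moved with the detection of miR-1 and miR-133a at 6 h, and its part in that detection was not tested. The median empty spot read 46.2 units there, against 122.6, 75.3 and 65.0 units at 0, 12 and 24 h. The 322 miRNAs that no array detected had a median spot of 46.3 units at 6 h, level with the empty spots, and of 90.9, 63.9 and 46.9 units at 0, 12 and 24 h, below them. The limit was thus lowest, and nearest to the dim probes, at 6 h, and 14.9% of all miRNAs were detected at 6 h and on no other array. On the quantile scale the levels of both at 6 h (6.61 for miR-1 and 6.56 for miR-133a, log2) lay under the lowest level detected in the control (6.89), so that no fold could be given for either. With the brightest empty spot as the limit miR-206 alone was detected at 6 h. Of 9 other ways of setting the limit, some were stricter than the reported one, so that they could not have detected miR-133b. Nor could the one on the authors' deposited values, which was set by miRNAs that include miR-133b. The limit from spots of miRNAs detected on no array was set by the same miRNAs. These include miR-133b and leave out miR-1 and miR-133a, which the reported rule detected at 6 h. The rule of 1 spot of 5 could not lose a miRNA detected by the reported rule. Carrying the 6 h ratio of limit to median empty spot to every array gives the reported limit at 6 h and a lower one at the other times. miR-133b was detected at 6 h where 1 spot of 5 sufficed and against the 20 nearest empty spots, and at no other time under any of the 9. miR-1 was detected at 6 h in 7 of the 9, at 12 h in 4 and at 24 h in 2, and in the control in none. miR-133a was detected at 6 h in 8 of the 9 and in the control in 1, and at 12 and 24 h in none.

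Other muscle miRNAs were examined in the same way. Of 7 on the list, which adds miR-208 and miR-208b, encoded in cardiac myosin heavy chain genes, and miR-499, encoded in a further myosin gene, miR-206 was detected on every array and miR-1 and miR-133a at 6 h. miR-208, miR-208b-3p and miR-499 were detected on none, with 2 of 5 spots of miR-208 above the limit at 6 h. Of the 7 opposite arms 1 was detected, miR-208*, in the control (165 ± 24.3 units, 4 of 5 spots) and at 6 h (59.9 ± 1.62 units, 5 of 5 spots). The opposite arm of the miR-206 hairpin, miR-206*, averaged 66.3 ± 9.52, 42.6 ± 2.82, 56.8 ± 3.03 and 41.1 ± 3.01 units at 0, 6, 12 and 24 h, below the median empty spot each time. miR-133b*, from the other arm of the miR-133b hairpin, was detected on none either, with 2 of 5 spots above the limit at 6 h. On this chromosome 9 pair of hairpins, 1 of 4 arms was detected on all arrays, a share close to the 24% of all miRNAs. The 1 of 7 muscle miRNAs detected at 0, 12 and 24 h and the 3 of 7 at 6 h, like the 1 of 7 opposite arms at 0 h and 6 h, stand beside 27.5%, 35.3% and 30.9% of all miRNAs at 0, 12 and 24 h and 52.3% at 6 h.

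**Figure D2:**
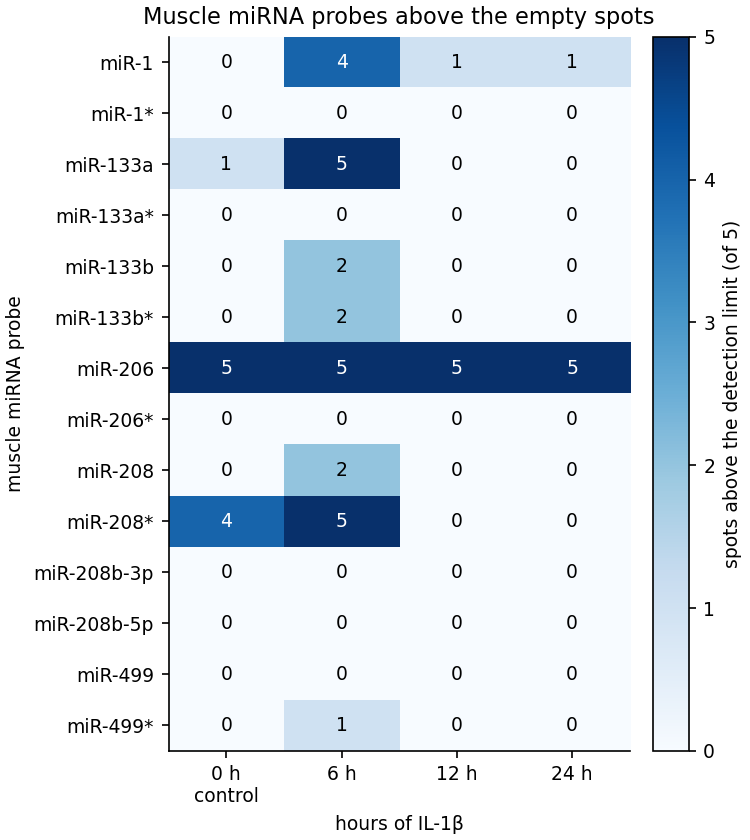
Number of spots above the detection limit, of 5 per array, for 14 muscle miRNA probes (rows, both arms of 7 hairpins) on the control array and after 6, 12 and 24 h of IL-1β (columns). miR-206 has 5 of 5 on all 4 arrays, and the other counts of 4 or more are those of miR-1 and miR-133a at 6 h and of miR-208* in the control and at 6 h.

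The authors' deposited table gives 1 intensity per miRNA and array, by a method that is not given in the sources used here, with values that reach down to about 0. In it miR-206 stood at 1028 in the control and at 1013, 444 and 892 at 6, 12 and 24 h. miR-133b stood at 22.9, 23.0, 16.3 and 17.6, on arrays whose medians over all miRNAs were 24.3, 22.5, 23.4 and 20.3. miR-1 read 30.5, 42.3, 31.3 and 42.6 and miR-133a 31.8, 31.3, 23.2 and 16.8. Where a miRNA counted as detected when it exceeded all those that no array detected, miR-206 passed on every array and miR-1 and miR-133a at 6 h. miR-133b is itself among the miRNAs that set this limit, so that it could not pass.

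Changes with IL-1β could be measured for miR-206 alone. After background correction and quantile normalization, which gives the arrays a common distribution, its log2 level was 10.10 in the control, 10.09 at 6 h, 9.68 at 24 h and 9.16 at 12 h, in falling order. The rule for a change asked for 1 or more on the log2 scale (2-fold) and for a size over 2 standard errors, which come from the spots and cover spot-to-spot error only. The change of miR-206 was -0.0063 ± 0.11 at 6 h, -0.93 ± 0.09 at 12 h (1.91-fold lower) and -0.41 ± 0.11 at 24 h (1.33-fold lower). It did not pass at any of these times, where 3.66%, 9.64% and 13.7% of the miRNAs compared did. The control and 6 h, neighbours in this order, differed by less than their spot error, and the steps from 6 h to 24 h (-0.41 ± 0.09) and from 12 h to 24 h (0.52 ± 0.07) exceeded it. Noise between arrays was not measured, so none of these steps can be set against a spread between samples.

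At 12 h the value of miR-206 was low among the miRNAs compared. In 11 of the 249 miRNAs compared (4.42%) the change from the control was as low as that of miR-206 or lower. The median of the 249 was 0.09. The change of miR-206 from 6 h was -0.93 ± 0.07, and 3 of 355 (0.845%) were as low or lower, beside a median of -0.04. Both counts include miR-206 itself. The 355 also hold the miRNAs detected at 6 h and on no other array, which were 14.9% of all miRNAs. The median size of change, sign ignored, was 0.13 among the 355 and 0.38 among the 249. The 2 ranks are therefore not alike, and the part of these dim miRNAs in the rank from 6 h was not tested. From 6 h to 12 h 1.41% of the miRNAs passed the rule, and miR-206 did not, though it did after median scaling (-1.04) and in the authors' deposited intensities (-1.11). In the authors' deposited intensities, with 50 added before log2, the change at 12 h from the control was -1.13, past 2-fold, as were 11.2% of the same 249 miRNAs in that table.

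How far miR-206 changed, and in which direction, depended on the scaling. Its change from the control to 24 h was below 0 under 8 processings, the reported one included, and above 0 under 4. From 6 h to 24 h it was below 0 under 9, again with the reported one, and above 0 under 3. Position by position on the array, the unscaled spots at 6 h were brighter than those of the control in 5 of 5 pairs (log2 0.33 ± 0.06) and at 24 h in 5 of 5 (0.49 ± 0.03), while at 12 h 3 were brighter and 2 dimmer (-0.0062 ± 0.06). The total signal of all miRNA spots rose from 2.95e+06 units in the control to 3.57e+06, 4.71e+06 and 4.19e+06 units at 6, 12 and 24 h. Without normalization the median change of all miRNAs compared was -0.32, 0.40 and 0.30 at the 3 times, and that of miR-206 was 0.37, 0.021 and 0.51. After scaling each array by the median of those seen on all 4 arrays, miR-206 stood at 0.29, -0.75 and 0.028, beside a median of -0.40, -0.37 and -0.19 for all. A lower value at 12 h than at 6 h was seen under every processing tried, between -1.11 and -0.34, and the unscaled spots of these arrays (706 to 767 units at 12 h, 821 to 1122 units at 6 h) did not overlap.

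**Figure D3:**
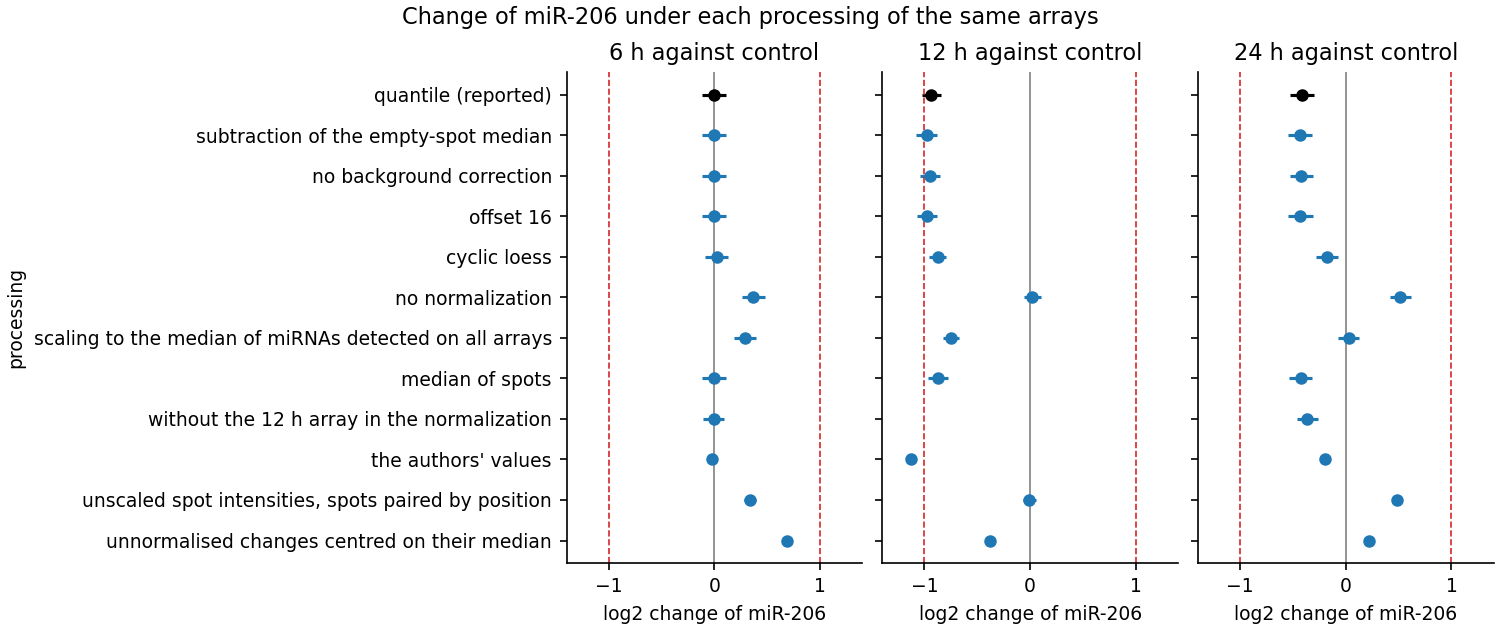
Log2 change of miR-206 from the control at 6, 12 and 24 h of IL-1β (panels) under each processing of the same arrays (rows), with the standard error over spots as bars where one could be computed and the 2-fold rule as dashed lines. The reported value (black) is -0.93 at 12 h, the authors' values alone pass the dashed line, and at 12 h the changes without normalization lie near 0.

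The miRNAs whose 3 changes from the control lay closest to those of miR-206 were sought among the other 162 detected on all 4 arrays, by root mean square difference in log2. They were miR-181a (0.18), miR-182 (0.20), miR-188 (0.23), miR-328a (0.24) and miR-181c (0.24), beside a median difference of 0.66. miR-181a stood at -0.31, -0.83 and -0.46 at 6, 12 and 24 h and miR-182 at -0.04, -0.66 and -0.62. The likeness rests on 4 arrays and on 3 changes that share 1 control.

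**Figure D4:**
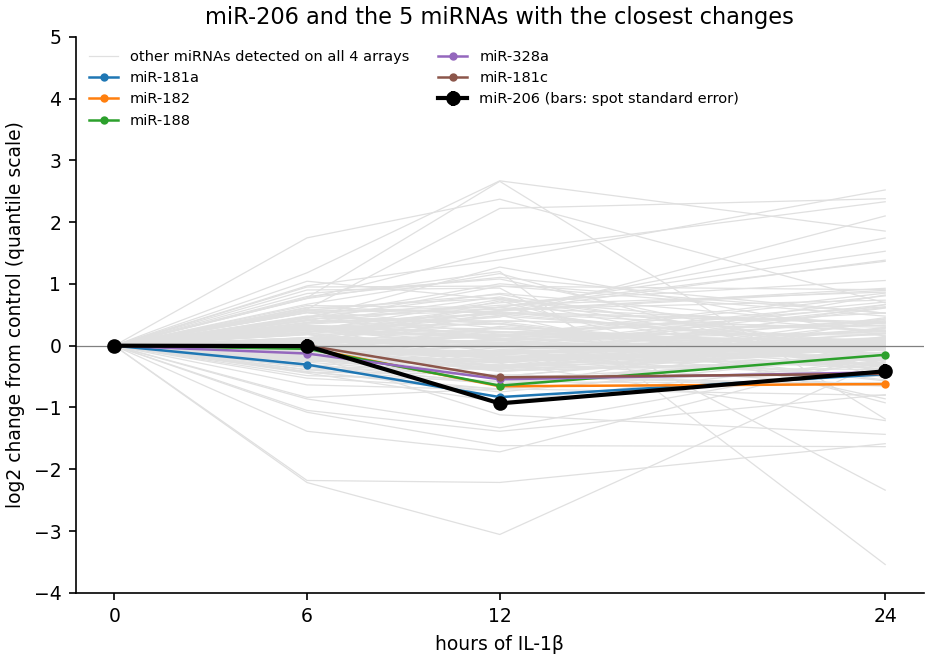
Log2 change from the control on the quantile scale (y axis) by hours of IL-1β (x axis) for miR-206 (black, bars are the standard error over spots), the 5 miRNAs with the closest changes (coloured) and the others detected on all 4 arrays (grey). miR-206 reads -0.93 at 12 h and -0.41 at 24 h, and the 5 nearest, picked for their closeness to it, lie below 0 at both times.

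The wider list of miRNAs that act in muscle differentiation but occur in many tissues, such as miR-24, miR-27b, miR-29 and miR-214, held 16 with a probe of the listed name. Of these, 14 were detected in the control, 16 at 6 h and 15 at both 12 h and 24 h. Over all 679 miRNAs the shares detected were 27.5%, 52.3%, 35.3% and 30.9% at 0, 6, 12 and 24 h. The list was chosen as miRNAs found in many tissues, so that its wide detection says nothing particular about muscle. The changes that passed were all higher, 2 of 16 compared at 6 h (miR-29c and miR-322, the latter not detected in the control) and 3 of 15 at both 12 h and 24 h (miR-29b, miR-29c and miR-322). Over all miRNAs compared, 1.41%, 5.62% and 8.15% passed as higher at these times. The list was chosen with earlier results of these data known, and miR-29b and miR-29c belong to the same family. The counts therefore cannot be read as an enrichment. The median change of the list was -0.05, -0.14 and 0.20, against 0.03, 0.09 and 0.02 over all miRNAs compared.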

How the data were processed

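Per the labels' protocols, total RNA was size-filtered for small RNAs, given a poly(A) tail and a ligated tag stained with Cy5. The authors deposited the mean intensity of 3968 spots per array, in linear scanner units with no background subtracted, and a table of 1 intensity per miRNA and array, whose method is not given in the sources used here. No source used here names the scanner or its software.

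Spot intensities were background-corrected with normexp (offset 50, limma 3.58.1 in R 4.3.3), quantile-normalized over miRNA spots and averaged over the 5 spots as log2 values. Further steps used Python 3.11.15, numpy 2.4.6, pandas 2.3.3 and matplotlib 3.10.9. The change rule covered every miRNA that 1 or both arrays of a comparison detected. It was also run on arrays simulated from the control alone. These hold spot noise but no difference in background and no noise between samples. With 1 array per group no p-value was computed, and the number of arrays limits the precision. Members and lists were chosen with earlier results of these data known. Named were the 4 members, the muscle list with its opposite arms, markers, related probes, and the 5 miRNAs closest in change to a member detected on at least 3 arrays. miR-486, listed, has no probe of that name. Alternatives covered detection limits, background correction, normalization, spot summary and the authors' values.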

Additional observations from a re-analysis of the deposited data

How the results depend on the processing

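The detection of miR-206 held on every array under all 9 alternatives, 3 of which were chosen after seeing the data. Not all of these could have failed, since counting a single spot of 5 cannot lose a miRNA already detected. The limit from the 6 h ratio of limit to median is the reported limit on the 6 h array. It is lower than the reported limit on the others, so that it could not lose one either. Every miR-206 spot was brighter than the brightest empty spot of its array. Limits at that spot or at a percentile of empty spots, and the rule of all 5 spots, could therefore not fail for it. Counting a single spot of 5 as detection gave 2 members at 0, 12 and 24 h in place of 1, and the brightest empty spot as limit gave 1 at 6 h in place of 3. With limits from the 20 nearest empty spots, from spots of miRNAs detected on no array, or from the 6 h ratio of limit to median (all added later), 2 members were detected at 12 h, and with the second of these 2 at 24 h as well. The change of miR-206 at 6, 12 and 24 h moved to 0.37, 0.021 and 0.51 without normalization, to 0.33, -0.0062 and 0.49 with unscaled spots paired by position, and to 0.69, -0.38 and 0.22 when unnormalised changes were centred (the last 2 added later), and to 0.29 and 0.028 at 6 h and 24 h after median scaling. The other alternatives moved it by less than the spread over spots. The 13, 24 and 32 miRNAs past the change rule at 6, 12 and 24 h became 25, 58 and 52 without normalization, 28, 46 and 51 after median scaling and 37, 73 and 79 with a 1.5-fold rule, and 18 at 24 h where both arrays had to detect the miRNA. The split of 5 higher and 8 lower at 6 h became 14 and 11 without normalization. At 12 h 14 and 10 became 52 and 6 without normalization and 14 and 32 after median scaling, and at 24 h 19 and 13 became 13 and 38 after the latter. No paired analysis was possible because each group was 1 array. Signal over background limits miR-1 and miR-133a, whose levels at 0, 12 and 24 h are only bounds, and miR-133b, whose level is a bound on every array.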
